A study of Mus musculus with 17 samples.

Results

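The transcripts of 5 genes were followed across azoxymethane-treated mouse colon: 4 receptors carried by neutrophils, Cxcr2, Fpr1, Fpr2 and Csf3r, and Hdc, the enzyme that makes histamine. They are 5 of the 988 genes counted by a targeted panel and were picked by symbol. The choice was made with the tumor levels of both genotypes and earlier results of the stage contrasts already known. Differences of the 5 genes between groups are therefore given as a description. The question put to the data was whether Hdc follows the neutrophil receptors from one library to the next. Each of the 17 libraries came from colon of a mouse injected intraperitoneally with azoxymethane, an alkylating compound used to produce tumors of the large bowel in rodents. Kit-B6 mice are C57BL/6 animals with normal Kit. Kit-W/sh mice are the W-sash strain, in which an inversion near Kit lowers its transcription in mast cells and some other Kit-dependent cells, so that adults lack most mast cells. The 6 Kit-B6 tumors and 6 Kit-W/sh tumors were collected at postnatal week 32, after 6 injections over 6 weeks and a further 18 weeks. The 3 Kit-B6 and 2 Kit-W/sh preneoplastic colons were collected at postnatal week 14, after 3 injections over 3 weeks and a further 3 weeks. No group was free of azoxymethane. Stage was tied to age, injections and tissue, and these cannot be told apart.

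Neutrophils leave the blood along gradients of chemokines and of bacterial and host peptides. Cxcr2 is the receptor for the CXC chemokines that draw neutrophils into tissue, such as Cxcl1, Cxcl2 and Cxcl5. Fpr1 and Fpr2 are receptors for formylated peptides of bacteria and mitochondria, and Fpr2 also binds annexin A1 and serum amyloid A. Csf3r is the receptor for granulocyte colony-stimulating factor, which drives the production and survival of neutrophils. Hdc, histidine decarboxylase, converts histidine to histamine. Mast cells and basophils are its best-known sources among blood-derived cells, and in mice it is also expressed by immature myeloid cells, including those of the neutrophil lineage.

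The start regions of Hdc and of 2 receptors are shown because the question is whether these genes move together, and their upstream letters can be set side by side. Each window runs from 250 bases before to 50 bases after the RefSeq start of the gene on build GRCm38.p6, read 5′ to 3′ on the strand of the gene. Hdc lies at chr2:126618629-126618928 on the minus strand, Cxcr2 at chr1:74153744-74154043 on the plus strand and Csf3r at chr4:126024409-126024708 on the plus strand. Capitals mark AGGAAG, the core read by ETS-family factors such as PU.1 of myeloid cells, or CTTCCT, the same core on the other strand.
Hdc: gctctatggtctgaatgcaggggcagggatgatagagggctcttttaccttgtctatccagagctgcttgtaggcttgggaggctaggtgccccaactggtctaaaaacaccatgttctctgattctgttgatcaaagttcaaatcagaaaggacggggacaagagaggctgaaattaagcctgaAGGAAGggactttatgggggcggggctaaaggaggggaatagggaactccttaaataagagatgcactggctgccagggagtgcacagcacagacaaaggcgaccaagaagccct
Cxcr2: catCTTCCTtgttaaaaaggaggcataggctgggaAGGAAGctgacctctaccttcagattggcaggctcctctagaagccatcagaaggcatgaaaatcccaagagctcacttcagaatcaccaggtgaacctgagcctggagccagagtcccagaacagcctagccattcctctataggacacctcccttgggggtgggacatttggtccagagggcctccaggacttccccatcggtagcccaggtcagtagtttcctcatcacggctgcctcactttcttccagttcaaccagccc
Csf3r: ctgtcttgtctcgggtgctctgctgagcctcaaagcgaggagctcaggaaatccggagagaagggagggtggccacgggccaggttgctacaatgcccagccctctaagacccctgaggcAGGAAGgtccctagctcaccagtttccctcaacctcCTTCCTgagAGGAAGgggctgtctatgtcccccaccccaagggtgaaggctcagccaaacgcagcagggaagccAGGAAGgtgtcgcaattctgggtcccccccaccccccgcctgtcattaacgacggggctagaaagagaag
Counted from the start, the Hdc window held 1 such core, at -65. The Cxcr2 window held 2, at -247 and -215, and the Csf3r window held 4, at -130, -94, -85 and -20. The windows of Fpr1 (chr17:17883890-17884189, minus strand) and Fpr2 (chr17:17887574-17887873, plus strand) held none. These 2 windows lie 3384 bases apart and point away from each other. The core was thus in 3 of 5 windows, and in 35.4% of the 32851 RefSeq mouse windows of that length. Other motifs were searched on both strands. The C/EBP pattern TTGCNNAA was in none of the 5 windows (10.8% of all windows). The GATA pattern AGATAA was in the Fpr2 window only among the 5 (11.2% of all windows). The TATA pattern TATAAA was in those of Fpr1 and Fpr2 (13.6% of all windows). A match to a few letters is a description of the sequence and not a binding site.

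Library totals ran from 616009 to 1399902 counts, so a floor of 3 counts corresponded to 2.14 to 4.87 CPM (counts put on one scale by dividing by the library total). Levels below are CPM after scaling by the trimmed mean of M values (TMM). An amplicon has its own efficiency, so levels are compared between libraries and not between genes. A pair of libraries bears on the results. Kit-B6 tumor 4 had the highest summed level of the 2 measured epithelial markers among the Kit-B6 tumors (49434 CPM, against 25383 to 32948 in the others) and the lowest of the 3 fibroblast markers (3047 CPM) and of the 7 monocyte and macrophage markers (1472 CPM). The library labelled Kit-W/sh tumor 2 had 460 CPM of the mast cell carboxypeptidase Cpa3 and 54 CPM of the mast cell tryptase Tpsab1, against its label, while the other 5 Kit-W/sh tumors had 0 to 9.81 CPM of Cpa3. Of the 10 neutrophil markers listed, the panel measured Il1r2 and Cd177, and S100a8, S100a9 and Ly6g were not measured. Cd177 does not track the receptors here. It stood at 2682 to 5984 CPM in preneoplastic colon of Kit-B6, where Cxcr2 was at or near 0, and at 460 to 3428 CPM in Kit-B6 tumors.

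Cxcr2 separated tumors from preneoplastic colon and, within tumors, Kit-W/sh from Kit-B6. In Kit-B6 tumors 1 to 6 it was at 80.8, 92.2, 107, 29.8, 96.2 and 106 CPM (mean 85.4 ± 28.9, SD, n = 6). In Kit-W/sh tumors 1 to 6 it was at 191, 121, 185, 213, 402 and 348 CPM (243 ± 108, n = 6). Every Kit-W/sh tumor lay above every Kit-B6 tumor, with the library labelled Kit-W/sh tumor 2 the lowest of its group. In Kit-B6 preneoplastic colon it was listed at 0, 1.81 and 0 CPM, and in that of Kit-W/sh at 0 and 2.75 CPM, which is 1 count over 3 libraries and 2 counts over 2. The preneoplastic values were all under the floor of 3 counts, so the order of the genotypes there was not detectable at this depth. In bulk tissue, fewer cells of a type and less RNA per cell cannot be told apart.

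Fpr1 and Fpr2 also averaged highest in Kit-W/sh tumors and lowest in preneoplastic colon, with overlap between the tumor genotypes. Fpr1 was at 26.7, 19.5, 24.2, 2.06, 34.2 and 25.9 CPM in Kit-B6 tumors 1 to 6 (22.1 ± 10.9, n = 6). It was at 63.4, 28.5, 70, 93.4, 124 and 96.2 CPM in Kit-W/sh tumors 1 to 6 (79.3 ± 32.9, n = 6). One Kit-W/sh tumor, the library labelled tumor 2, fell inside the Kit-B6 range, and Kit-B6 tumor 4 was at the level of preneoplastic colon. Preneoplastic Kit-B6 colon had 3.67, 0 and 0 CPM of Fpr1, preneoplastic Kit-W/sh colon 1.81 and 2.75 CPM, and these 2 groups overlapped. Fpr2 was at 94.5, 86.6, 96.7, 14.4, 145 and 64.9 CPM in Kit-B6 tumors (83.6 ± 42.8, n = 6). In Kit-W/sh tumors Fpr2 was at 228, 113, 153, 178, 183 and 218 CPM (179 ± 42.2, n = 6). Again the library labelled Kit-W/sh tumor 2 was the one Kit-W/sh tumor within the Kit-B6 range, and Kit-B6 tumor 4 was the lowest tumor. Preneoplastic Kit-B6 colon had 14.7, 16.3 and 7.75 CPM of Fpr2 and preneoplastic Kit-W/sh colon 10.9 and 5.5 CPM, also overlapping. Fpr1 and Fpr2 belong to a family of close relatives clustered on chromosome 17, whose amplicons could capture one another's reads, so a value of either gene alone is uncertain.

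Csf3r differed least between the tumor genotypes. It was at 98.5, 65.6, 126, 29.8, 113 and 104 CPM in Kit-B6 tumors 1 to 6 (89.5 ± 35.6, n = 6) and at 129, 122, 106, 127, 231 and 213 CPM in Kit-W/sh tumors 1 to 6 (155 ± 53.2, n = 6). Kit-W/sh tumors 5 and 6 stood apart from the rest, and the other 4 lay within the upper part of the Kit-B6 range or just above it. Preneoplastic Kit-B6 colon had 9.17, 7.26 and 6.2 CPM of Csf3r, that of Kit-W/sh 5.43 and 9.63 CPM, and these groups overlapped.

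Hdc, like the receptors, averaged highest in Kit-W/sh tumors, then in Kit-B6 tumors, and lowest in preneoplastic colon. Kit-B6 tumors 1 to 6 had 51.7, 62.8, 93.5, 41.2, 112 and 49.5 CPM of it (68.4 ± 28, n = 6), and Kit-W/sh tumors 1 to 6 had 173, 118, 108, 191, 315 and 146 CPM (175 ± 75.6, n = 6). Kit-B6 tumors 3 and 5 were the high ones of their group, and only tumor 5 of these exceeded the lowest Kit-W/sh tumor, number 3. Preneoplastic Kit-B6 colon had 12.8, 7.26 and 10.8 CPM of Hdc, and that of Kit-W/sh had 7.23 and 16.5 CPM. All 5 preneoplastic values were above the floor and below all 12 tumors, and the genotypes overlapped.

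**Figure D1:**
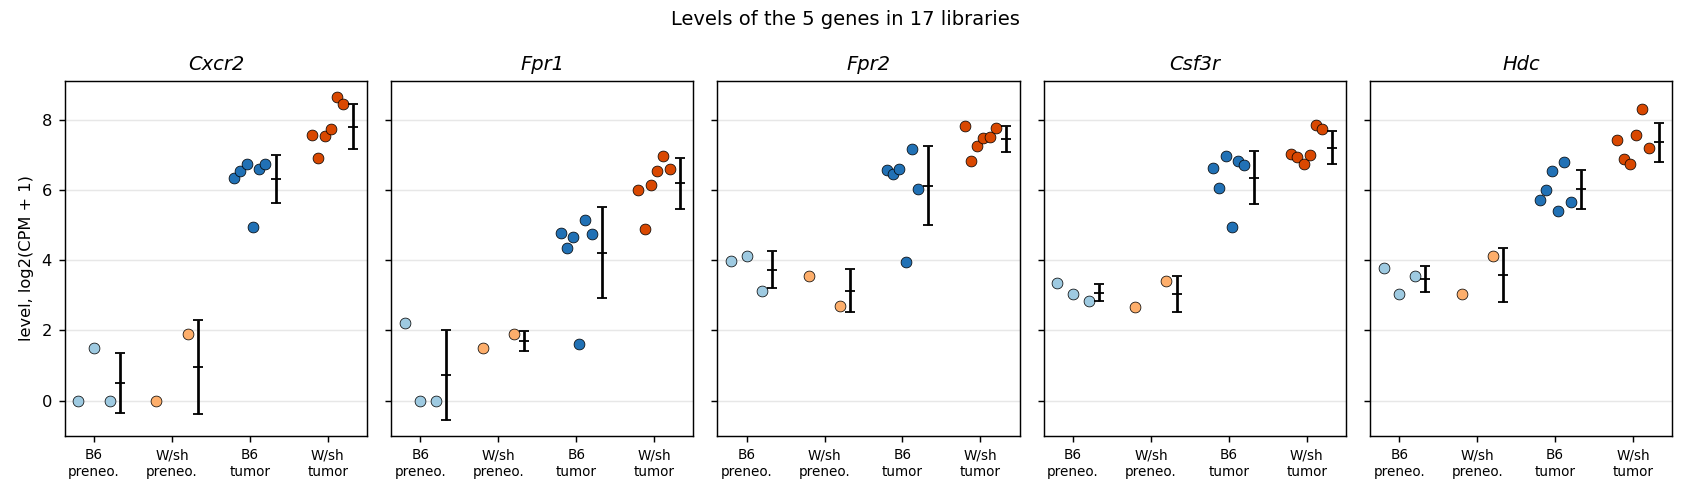
Level of each gene in the 17 libraries as log2(CPM + 1) on the vertical axis, by group on the horizontal axis (preneo. is preneoplastic colon; B6 and W/sh are Kit-B6 and Kit-W/sh). Points are libraries and the bar beside them is the mean ± SD of the log2 values; in tumors the Cxcr2 groups do not overlap, while single low points of Fpr1 (2.06 CPM) and Fpr2 (14.4 CPM) in Kit-B6 tumors are tumor 4.

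The comparison of Kit-W/sh with Kit-B6 tumors is one of genotype. Scarcity of mast cells and changes in other Kit-dependent cells cannot be told apart in it. The fitted log2 fold change was 1.49 ± 0.34 (SE) for Cxcr2, 1.81 ± 0.48 for Fpr1, 1.08 ± 0.39 for Fpr2, 0.77 ± 0.32 for Csf3r and 1.33 ± 0.32 for Hdc. With edgeR's quasi-likelihood test and Benjamini-Hochberg adjustment over 799 genes, 0 of the 5 passed 0.05, and the background was 0% (0 of 799 genes, with 109 at an unadjusted p under 0.05). DESeq2 called 27 of 805 genes (3.35%), of which 20 were higher (2.48%), and 3 of the 5 were among the higher ones. These were Cxcr2 at 1.47, Fpr1 at 1.80 and Hdc at 1.31 on the log2 scale. Groups that do not overlap, with Kit-W/sh higher, were found for 5 of 799 genes (0.626%), and Cxcr2 was 1 of those 5. Since this contrast was among the values behind the choice of genes, nothing is read from these shares. Without the library labelled Kit-W/sh tumor 2 or any other single tumor, 0 genes passed, and the fold change stayed between 1.28 and 1.63 for Cxcr2 and between 1.07 and 1.53 for Hdc. The monocyte and macrophage markers moved in the same direction in sum (1472 to 3792 CPM, median 2495, in Kit-B6 tumors and 2504 to 4121 CPM, median 3545, in Kit-W/sh tumors). Cd14, a monocyte and neutrophil receptor for bacterial lipopolysaccharide, was the most counted of them (1172 ± 335 and 1894 ± 590 CPM), and of the 6 markers tested 3 had a higher and 3 a lower estimate. None of the 7 was at 0 in either group. Their part in the result was not tested.

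Between stages all 5 genes were far higher in tumors. Pooling counts over the libraries of a group, and dividing by TMM-scaled totals, Cxcr2 was 148-fold higher in Kit-B6 tumors than in Kit-B6 preneoplastic colon (522 counts against 1, 95% exact interval 26.5 to 5870). In Kit-W/sh it was 152-fold higher (1763 counts against 2, 42.1 to 1259). The Fpr1 ratio was 20.2 in Kit-B6 (142 counts against 2, 5.48 to 168) and 33.3 in Kit-W/sh (578 against 3, 11.3 to 162). For these 2 genes the preneoplastic level rests on 1 to 3 counts, and the ratios are known only within those intervals. Intervals cover counting error only, and are too narrow if amplified reads and not molecules were counted. The other ratios rest on 10 or more counts at each end. Fpr2 was 7.01-fold higher in Kit-B6 tumors (4.59 to 11.3) and 22.8-fold higher in Kit-W/sh tumors (12.4 to 47.7). Csf3r was 12.4-fold higher (7.16 to 23.3) and 19.5-fold higher (10.6 to 40.7). Hdc was 6.90-fold higher (4.31 to 11.8) and 13.9-fold higher (8.54 to 24.4).

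Markers of other cell types moved with stage as well. In Kit-B6 the summed level of the 7 measured monocyte and macrophage markers (of 9 listed) was 1239 to 1333 CPM in preneoplastic colon and 1472 to 3792 CPM in tumors. The 3 measured fibroblast markers (of 6) summed to 1818 to 3534 and 3047 to 11628 CPM, overlapping only through tumor 4. Most of that sum was Col3a1, with means of 2455 and 6746 CPM. In both genotypes 2 of the 3 had a higher and 1 a lower estimate in tumors, and in Kit-W/sh edgeR called that 1 lower. The 2 measured epithelial markers (of 6) summed to 50704 to 122979 and 25383 to 49434 CPM. That fall was in Car4, with means of 50701 and 3873 CPM, while Epcam had means of 26983 and 27436 CPM. The 6 T cell markers (of 6) were lower in tumors, at 462 to 1197 and 74.6 to 405 CPM. The 5 measured B cell markers (of 6) summed to 93.5 to 2168 and 14.7 to 482 CPM, and these overlapped. In Kit-W/sh the sums in preneoplastic colon and in tumors were 1304 to 1558 and 2504 to 4121 CPM for monocytes and macrophages and 1805 to 3711 and 4589 to 7404 CPM for fibroblasts. For the epithelial markers they were 88889 to 89655 and 24478 to 30378 CPM. There Car4 means were 60961 and 1551 CPM and Epcam means 28311 and 26868 CPM. The sums were 563 to 669 and 168 to 601 CPM for T cells, and 78.4 to 184 and 11.3 to 77.1 CPM for B cells. No marker of these lists was at 0 in all libraries of a group. Their part in the stage differences of the 5 genes was not tested.

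In the fit of all 17 libraries the log2 stage difference in Kit-B6 was 2.70 ± 0.57 for Fpr2, 3.56 ± 0.51 for Csf3r and 2.72 ± 0.49 for Hdc. In Kit-W/sh it was 4.46 ± 0.75, 4.31 ± 0.62 and 3.84 ± 0.60. The fitted values of Cxcr2 (6.92 ± 0.87 and 7.20 ± 0.92) and Fpr1 (4.11 ± 0.99 and 5.02 ± 1.08) depend on how near-0 counts are treated. Without Kit-B6 preneoplastic sample 2 the Cxcr2 value was 9.43. Without Kit-B6 preneoplastic sample 1 the Fpr1 value was 7.5, and without sample 3 it was 3.52. In Kit-W/sh, leaving out preneoplastic sample 1 gave 6.41 for Cxcr2, and leaving out sample 2 gave 10.91 for Cxcr2 and 4.58 for Hdc. With edgeR's test, 5 of 5 genes passed as higher in Kit-B6 tumors, where 22.2% of 869 genes did, and 5 of 5 passed in Kit-W/sh, where 20.9% did. For all 5 genes, tumors lay above preneoplastic colon without overlap in Kit-W/sh (29.6% of genes did so). In Kit-B6 3 of 5 did (16.2%), and Fpr1 and Fpr2 overlapped through tumor 4. Nothing is read from these shares, since the 5 genes were chosen with earlier results of the stage contrasts known. None of the 5 passed the low-count filter in preneoplastic colon alone. Calls over all genes were 193 higher and 164 lower in Kit-B6 and 182 higher and 163 lower in Kit-W/sh. With unscaled totals they were 273 and 101, and 253 and 108, as the median of all genes moved from -0.003 to 0.24 and from 0.081 to 0.34 on the log2 scale. The 5 genes passed as higher under that scaling too.

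Preneoplastic colon held too few counts of the 5 genes for a fit across genes, and none passed the filter on low counts (777 genes did, and 1 of them, 0.129%, was called). Pooled counts of Kit-W/sh over Kit-B6 gave a ratio of 1.21 for Hdc (16 counts against 18, 95% exact interval 0.577 to 2.51). The ratio was 1.05 for Csf3r (10 against 13, 0.411 to 2.59) and 0.619 for Fpr2 (10 against 22, 0.262 to 1.36). Each interval includes equality. For the genotype-by-stage interaction, edgeR called 0 of 869 genes (0%) and 0 of these 5, with 63 genes at an unadjusted p under 0.05. DESeq2 called 1 of 963 genes (0.104%), not one of the 5.

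Whether Hdc follows the receptors was tested inside each tumor genotype, so that the difference between genotypes does not enter. In Kit-B6 tumors Pearson's r of log2(CPM + 1) between Hdc and Fpr2 was 0.748 (exact permutation p = 0.0111, adjusted over the 8 relations p = 0.0889, n = 6), with a Spearman rho of 0.943 (exact permutation p = 0.0167, adjusted p = 0.133). For Csf3r r was 0.660 (exact permutation p = 0.0833, adjusted p = 0.16) and rho 0.714 (exact permutation p = 0.136, adjusted p = 0.272). For Fpr1 r was 0.616 (exact permutation p = 0.0806, adjusted p = 0.16) and for Cxcr2 0.599 (exact permutation p = 0.1, adjusted p = 0.16). Both had a rho of 0.543 (exact permutation p = 0.297, adjusted p = 0.34). Kit-B6 tumors 3 and 5 were the highest in Hdc, Fpr2 and Csf3r, and tumor 4 was the lowest in all 5 genes.

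In Kit-W/sh tumors r was 0.695 for Cxcr2 (exact permutation p = 0.15, adjusted p = 0.2), with a rho of 0.771 (exact permutation p = 0.103, adjusted p = 0.272). It was 0.674 for Fpr1 (exact permutation p = 0.0972, adjusted p = 0.16; rho 0.6, exact permutation p = 0.242, adjusted p = 0.34). For Csf3r r was 0.673 (exact permutation p = 0.211, adjusted p = 0.241; rho 0.771, exact permutation p = 0.103, adjusted p = 0.272). Fpr2 gave the lowest value, 0.442 (exact permutation p = 0.361, adjusted p = 0.361; rho 0.486, exact permutation p = 0.356, adjusted p = 0.356). Tumor 5 was the highest in Hdc, Cxcr2, Fpr1 and Csf3r alike, and tumor 6 was second in Cxcr2, Fpr1 and Csf3r but only above tumors 2 and 3 in Hdc.

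All 8 relations were positive and 0 of 8 passed the adjustment. With 6 tumors a group, the smallest p that an exact two-sided test allows is 0.00278. Leaving out the 2 tumors farthest from the median of the receptor left r positive in 6 of the 8 relations, from 0.267 to 0.832 (n = 4). In Kit-B6 it turned to -0.127 for Cxcr2 and -0.298 for Fpr1, so these 2 relations rest on the tumors left out. Without Kit-B6 tumor 4 alone, r in Kit-B6 was 0.327 for Cxcr2, 0.453 for Fpr1, 0.828 for Fpr2 and 0.452 for Csf3r. Without the library labelled Kit-W/sh tumor 2, r in Kit-W/sh was 0.621, 0.722, 0.197 and 0.633 in the same order. Hdc and the receptors share depth and scaling in each library.

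**Figure D2:**
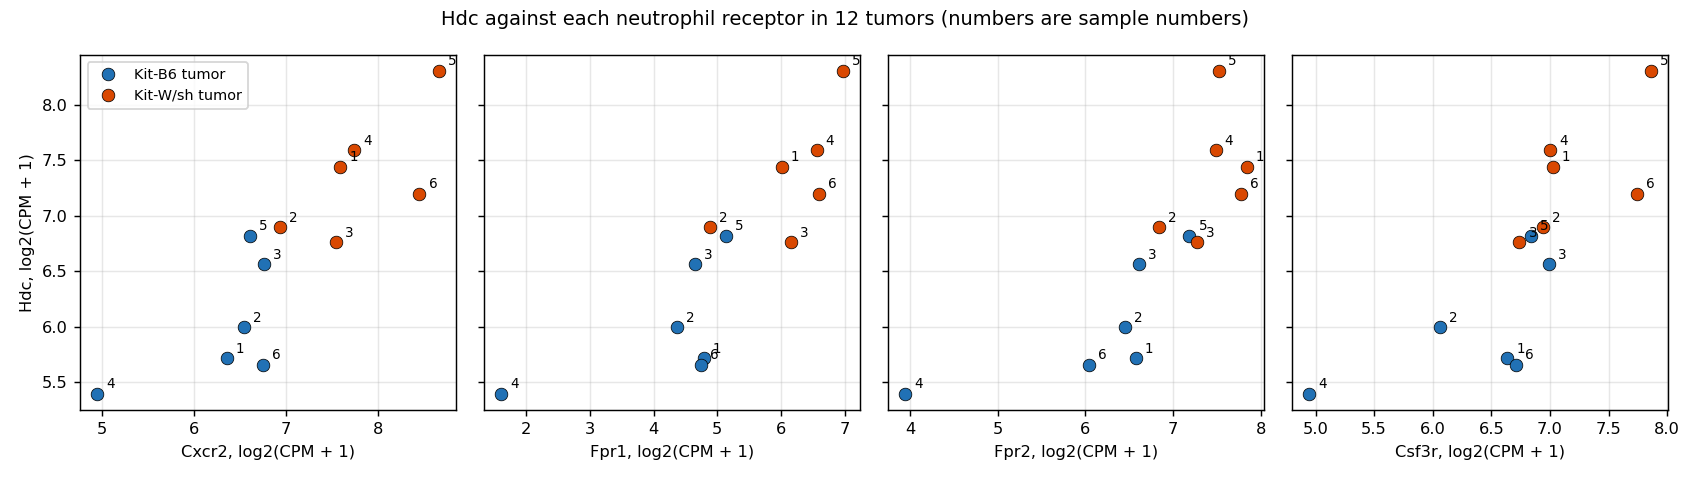
Hdc on the vertical axis against each receptor on the horizontal axis, both as log2(CPM + 1), in the 12 tumors (blue, Kit-B6; orange, Kit-W/sh; numbers are sample numbers). Within each color the points rise to the right with wide scatter, and Kit-B6 tumor 4 is the lowest point in every panel.

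The number of Hdc counts per receptor count shows the same scatter without any scaling of libraries. Relative to Cxcr2 it was 0.467 to 1.38 in Kit-B6 tumors and 0.418 to 0.975 in Kit-W/sh tumors, a mean log2 ratio of -0.30 ± 0.58 (SD, n = 6) and -0.45 ± 0.47 (n = 6). Relative to Csf3r the log2 ratio was -0.34 ± 0.59 and 0.15 ± 0.42, and relative to Fpr2 it was -0.10 ± 0.84 and -0.09 ± 0.52. Relative to Fpr1 it was 1.93 ± 1.25 in Kit-B6, where tumor 4 had 20 Hdc counts per Fpr1 count against 1.91 to 3.87 in the other 5, and 1.18 ± 0.55 in Kit-W/sh. The log2 share of Hdc itself varied with an SD of 0.57 in Kit-B6 and 0.52 in Kit-W/sh tumors. In Kit-W/sh tumors the ratios to Cxcr2, Fpr2 and Csf3r varied slightly less than Hdc did, and in Kit-B6 tumors no ratio did. The SD of the log2 receptor share in Kit-B6 was 0.77 for Cxcr2, 1.57 for Fpr1, 1.22 for Fpr2 and 0.82 for Csf3r. Each was above the SD of its ratio. In Kit-W/sh these SDs were 0.62, 0.73, 0.35 and 0.43 in the same order, and only the Fpr2 ratio varied more than its receptor. The genotype means of all 4 log2 ratios differed by less than 1 SD of the wider group.

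**Figure D3:**
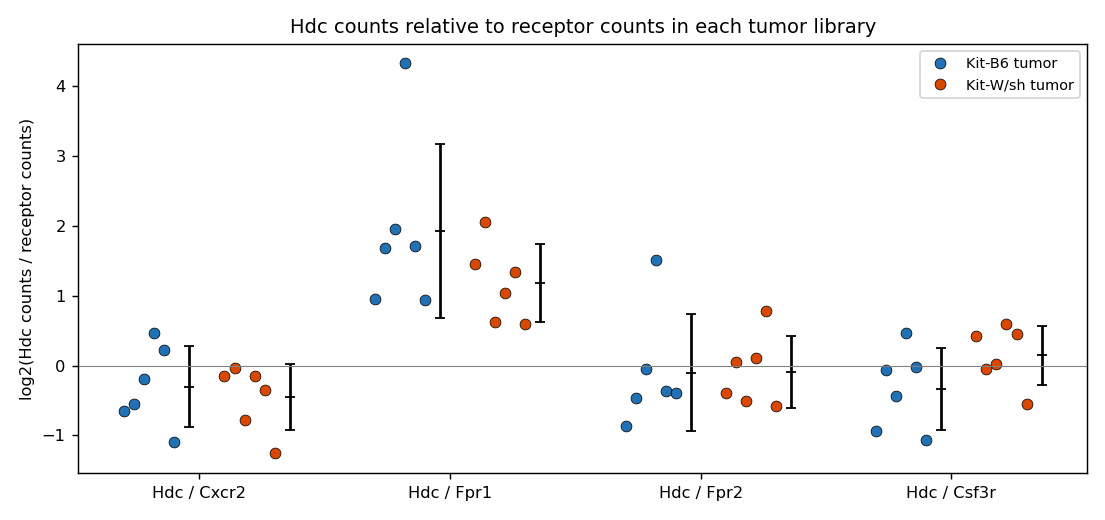
Hdc counts divided by the counts of each receptor in the same library, on a log2 scale (vertical axis), for 6 Kit-B6 and 6 Kit-W/sh tumors. Points are libraries and bars are the mean ± SD; the genotypes overlap for all 4 receptors, and the isolated high points relative to Fpr1 (20 counts per count) and Fpr2 (2.86) are Kit-B6 tumor 4.

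Over the 12 tumors pooled, every pair of receptors had a higher r than any receptor had with Hdc, but this did not hold within Kit-W/sh tumors. After the mean of each genotype was removed, r over the 12 tumors between pairs of receptors ran from 0.773 (Cxcr2 with Fpr2) to 0.914 (Cxcr2 with Fpr1). Fpr1 with Fpr2 gave 0.909. Within Kit-B6 tumors receptor pairs ran from 0.899 to 0.966. Within Kit-W/sh tumors they ran from 0.462 (Fpr2 with Csf3r) to 0.904 (Cxcr2 with Fpr1), with Fpr1 with Csf3r at 0.623 and Cxcr2 with Fpr2 at 0.659, below the r of Hdc with Cxcr2, Fpr1 and Csf3r there (0.673 to 0.695). In the pooled measure Hdc with the receptors gave 0.646 for Csf3r, 0.645 for Cxcr2, 0.613 for Fpr1 and 0.599 for Fpr2. These ranked 18, 20, 33 and 41 among 798 genes ordered by their r with Hdc. The median gene had an r of 0.046 with Hdc and the 95th percentile was 0.599, so all 4 receptors lay close to or above that percentile. Seen from Cxcr2, Hdc ranked 74 of 798. The fibroblast markers Pdgfrb (rank 25, at 0.780) and Col3a1 (rank 70, at 0.653) stood above it, and Zeb1 ranked 656. Within Kit-B6 tumors, Col3a1 (0.948) and the monocyte and macrophage marker Ccr2 (0.925) had r with Cxcr2 as high as receptor pairs. Csf1r was lower, at 0.690. Within Kit-W/sh tumors Col3a1 was at 0.011 and Ccr2 at -0.669. The part of Kit-B6 tumor 4 in the r of receptor pairs was not tested. These values describe 12 libraries that share depth and tissue mix, and are given without a test.

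The 10 genes most like Hdc in that measure were led by Creb5, a transcription factor of the CREB family, at 0.792. Nfkbia, the inhibitor of NF-kappaB that NF-kappaB itself induces, followed at 0.773. Pf4, a chemokine of platelets and megakaryocytes, was at 0.768 and Cxcl2, a ligand of Cxcr2, at 0.761. The cytosolic DNA sensor adaptor Tmem173 was at 0.758, the mitochondrial serine hydroxymethyltransferase Shmt2 at 0.751 and the transcription factor Klf12 at 0.741. Tnfsf9, the ligand of the T cell receptor 4-1BB, was at 0.733, the osmotic stress factor Nfat5 at 0.724 and the sialyltransferase St3gal1 at 0.722. Il1r2, the decoy receptor for interleukin 1 carried by neutrophils, ranked 14 at 0.660. None of the 798 genes reached 0.8 with Hdc. Cxcl2 was at 344, 526.4, 369, 39.1, 901 and 373 CPM in Kit-B6 tumors 1 to 6 and at 1596, 583, 1439, 2637, 5395 and 1897 CPM in Kit-W/sh tumors 1 to 6. It peaked in tumor 5 of each genotype, as Hdc did, and was lowest in Kit-B6 tumor 4, as Hdc was. The lowest r values were larger in size than the highest. They were -0.932 for H2-D1, a class I histocompatibility gene, -0.873 for the interferon-induced Oas1a and -0.851 for the cytokine Il7. H2-D1 and Oas1a have near-identical relatives, so their counts may be shared with these.

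The 5 genes most like Cxcr2 were Inhba, a subunit of activin, at 0.936, Fpr1 at 0.914, the Cxcr2 ligand Cxcl1 at 0.913, Csf3r at 0.895 and the growth factor gene Csf2 at 0.894. Both Fpr1 and Csf3r were thus among the 5, and Fpr2 ranked 27 at 0.773.

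**Figure D4:**
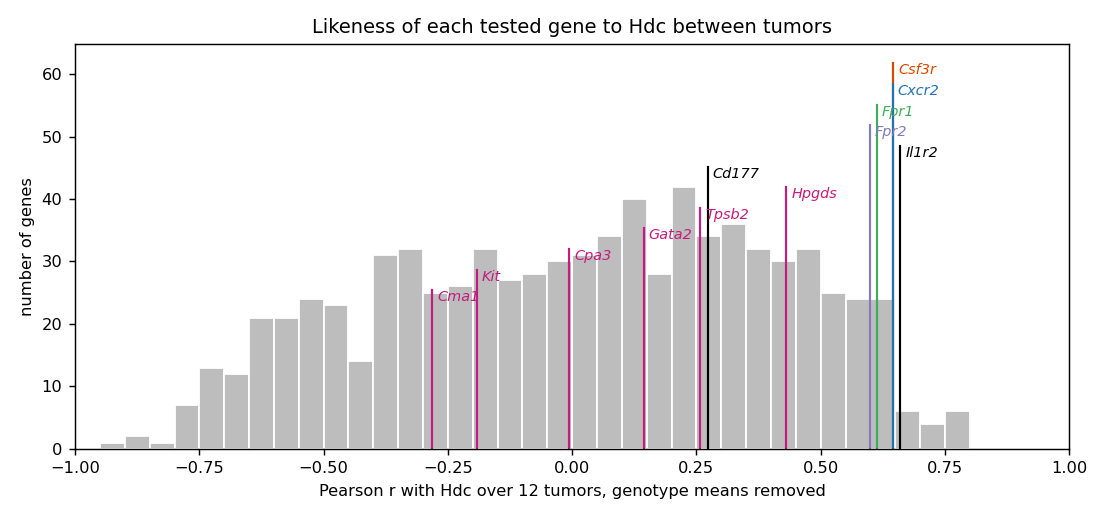
Pearson's r of each of 798 genes with Hdc over 12 tumors after removal of the mean of each genotype (horizontal axis; the vertical axis counts genes). Lines mark the 4 receptors (0.599 to 0.646), the neutrophil genes Il1r2 (0.660) and Cd177 (0.273) in black, and all 6 mast cell genes tested in magenta, from Cma1 (-0.281) to Hpgds (0.431); line heights only separate the labels.

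Mast cell genes were set beside Hdc because mast cells make histamine. Of the 15 on the list, 9 were measured and 6 tested in tumors, with 1 higher, 5 lower, 0 called by edgeR and a median log2 fold change of -0.48 between Kit-W/sh and Kit-B6, against -0.01 for all genes. Their r with Hdc after removal of genotype means ran from -0.281 for the chymase Cma1 to 0.431 for the prostaglandin D synthase Hpgds, with the tryptase Tpsb2 at 0.258, the transcription factor Gata2 at 0.144, Cpa3 at -0.005 and Kit at -0.192. Within Kit-B6 tumors r with Hdc was 0.759 for Hpgds, above all 4 receptors, 0.530 for Gata2, 0.481 for Tpsb2, 0.468 for Cpa3, 0.070 for Cma1 and -0.282 for Kit. Within Kit-W/sh tumors it was 0.057, -0.211, 0.113, -0.268, -0.688 and -0.093 in the same order, with nearly all Cpa3 counts in the one labelled tumor 2. These values are a description over 6 tumors each, and the difference between the genotypes was not tested. In Kit-B6 tumors 1 to 6 Cpa3 was at 72.7, 83.8, 11.6, 11.3, 256 and 22.4 CPM. Tumor 5 was therefore the highest in both Cpa3 and Hdc, and tumor 3 was second in Hdc with Cpa3 near its lowest. In Kit-W/sh tumors Cpa3 was at 9.81, 460, 0, 0.772, 2.57 and 3.67 CPM. The 5 libraries with Cpa3 at or under 9.81 CPM had 108 to 315 CPM of Hdc. The one library with 460 CPM of Cpa3 had 118 CPM of Hdc. Cpa3 is 1 of the 9 mast cell genes measured. These 9 summed to 169 to 1427 CPM in Kit-W/sh tumors (median 296) and 417 to 1435 CPM in Kit-B6 tumors (median 555). The summed level of the 5 measured mast cell markers was 50.4 to 594 CPM in Kit-B6 tumors (median 99.96) and 14.7 to 780 CPM in Kit-W/sh tumors (median 34.9). No marker was at 0 in all libraries of either tumor group.

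**Figure D5:**
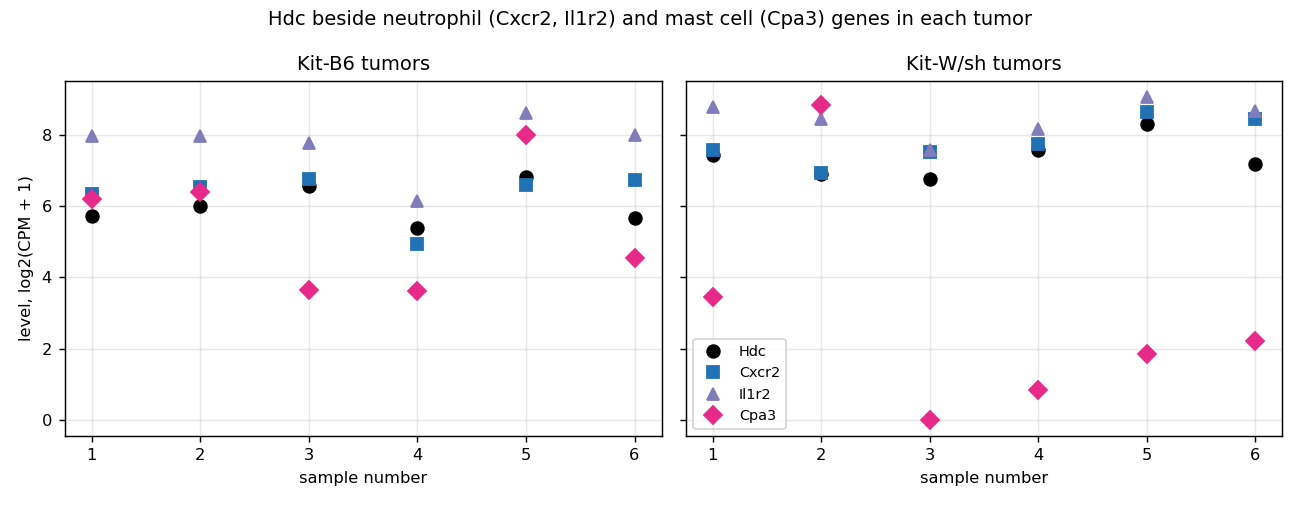
Hdc, the neutrophil genes Cxcr2 and Il1r2 and the mast cell gene Cpa3 as log2(CPM + 1) (vertical axis) in each tumor (horizontal axis, sample number), with Kit-B6 on the left and Kit-W/sh on the right. In Kit-W/sh tumors Hdc is at 108 to 315 CPM. Cpa3 is at 0 to 9.81 CPM in 5 of 6 libraries and at 460 CPM in the one labelled tumor 2. It is 1 of 9 mast cell genes measured, which summed to 169 to 1427 CPM in Kit-W/sh tumors. Replicates have no order.

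Of the other genes known from basophils, Il4, Il13 and Ccr3 were measured, and none passed the filter in tumors. Their summed level was 4.85 to 7.84 CPM in Kit-B6 tumors and 3.02 to 22.4 CPM in Kit-W/sh tumors. In preneoplastic colon it was 27.5 to 54.2 CPM and 12.7 to 22.0 CPM. Ccr3 was also listed as an eosinophil marker, so this sum is not specific to basophils. Il4 alone was at 0 to 3.56 and 0.755 to 9.25 CPM in tumors and at 3.10 to 12.7 and 0 to 2.75 CPM in preneoplastic colon. The histamine receptor Hrh4 had 4 counts in the one library labelled Kit-W/sh tumor 2 and 0 in the other 16. Slc18a2, which loads histamine into granules, fell by 1.47 ± 0.53 on the log2 scale from preneoplastic colon to tumor in Kit-B6 (edgeR adjusted p = 0.034), opposite to Hdc, and its estimate in Kit-W/sh was -0.71 ± 0.61.

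With edgeR's test, some other neutrophil genes were called between stages. None was called between tumor genotypes, where that test called 0 of all 799 genes. Of 36 listed genes 10 were measured. In tumors 8 were tested, and 7 had a higher and 1 a lower estimate in Kit-W/sh, with 0 called by edgeR and a median of 0.40. Ptafr, the receptor for platelet-activating factor, had the smallest p, at 0.87 ± 0.26 (edgeR adjusted p = 0.184). Il1r2 was at 252, 250, 216, 70, 395 and 255 CPM in Kit-B6 tumors and at 438, 352, 190, 285, 535 and 406 CPM in Kit-W/sh tumors, overlapping groups with a log2 difference of 0.60 ± 0.34. Between stages 5 of 9 tested genes passed as higher in Kit-B6 tumors (median 1.13 over the 9; 22.2% of all genes passed as higher), among them the integrin chains Itgam at 2.11 ± 0.39 and Itgb2 at 1.48 ± 0.38, and Il1r2 at 1.94 ± 0.50. In Kit-W/sh 7 of 9 passed as higher (median 2.49; 20.9% of all genes), with Itgam at 3.43 ± 0.51, Il1r2 at 3.53 ± 0.67 and Ptafr at 2.49 ± 0.46. Cd177 did not pass in either, at -1.28 ± 0.56 and -0.23 ± 0.66. Itgam, Itgb2, Ptafr and Csf2rb are also expressed by monocytes and macrophages.

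With edgeR's test, ligands of the receptors were called higher in tumors of both genotypes than in preneoplastic colon. None was called between tumor genotypes, where 0 of all 799 genes were called. Of the 10 listed, 6 were measured, all of them ligands of Cxcr2 or related CXC chemokines. In tumors 5 were tested, and all had higher estimates in Kit-W/sh, with 0 called by edgeR and a median log2 fold change of 1.63. The values were 2.38 ± 0.61 for Cxcl2, 2.03 ± 0.63 for Cxcl1, 1.63 ± 0.61 for Cxcl3, 0.86 ± 0.42 for Cxcl5 and 0.87 ± 0.56 for Ppbp. Between stages 6 of 6 passed as higher in Kit-B6 tumors (22.2% of all genes did) and 5 of 6 in Kit-W/sh (20.9%). There Cxcl15 was at 2.30 ± 1.30 (edgeR adjusted p = 0.167). Only 3 of the 6 passed the low-count filter in preneoplastic colon alone. Over the 3 Kit-B6 preneoplastic libraries Cxcl2 had 3 counts and Cxcl3 had 4. Nothing is read from these shares. Cxcl5 rose by 6.45 ± 0.74 in Kit-B6 and by 4.66 ± 0.80 in Kit-W/sh, from 20.1 to 77.0 and 262 to 410 CPM in preneoplastic colon to 704 to 6543 and 4077 to 11556 CPM in tumors. These comparisons share the libraries of the tumor and preneoplastic groups with those of the 5 genes.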

How the data were processed

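Azoxymethane-exposed mouse colon was profiled by amplicon sequencing, per the labels' protocols (QIAseq targeted RNA panel for mouse immuno-oncology, MiSeq). The authors deposited 1 table of counts per sample, whole numbers for each panel gene. Whether reads or molecular tags were counted is not given in the sources used here, nor are the aligner, counter and amplicon positions. The submitters' processing notes name the mm9 build and DESeq2, without a version. Each table held 993 entries, 988 genes and 5 control amplicons, and the controls had 0 counts and were left out.

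Groups came from the sample titles. The labels do not say that all samples are separate mice, and p-values then reflect only how these samples vary, which may be technical. No pair of libraries within a group was a copy within counting error (lowest chi-square per degree of freedom 13.0).

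Counts were tested in R 4.3.3 with edgeR 4.0.16 (TMM scaling, filterByExpr at 10 counts and a total of 15, robust quasi-likelihood F test, two-sided), with Benjamini-Hochberg adjustment over all genes tested and a threshold of 0.05. Genotypes were compared within a stage, and stages and the interaction in 1 fit of 17 libraries. Alternatives were DESeq2 1.42.0, other scalings, no filter, a replicate block and each library left out. Levels are CPM, as mean ± SD. Correlations used log2(CPM + 1) with two-sided exact permutation tests in SciPy 1.17.1, adjusted over 8 relations. Pooled counts were compared with exact 95% intervals, which cover counting error at most. They are too narrow if amplified reads were counted, since these are not independent molecules. Scripts were tested on simulated data. Promoter windows came from a RefSeq table for GRCm38.p6, a later build than mm9, and were matched by symbol for 5 of 5 genes.

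The 5 genes, the gene lists and the tests were chosen with earlier results of these data known. Besides the 5 genes, the text names the 10 most and 3 least like Hdc, the 5 most like Cxcr2, and up to 4 from each list, by the smallest p or, where untested, the highest total count. Further list genes, markers and Cd14 were named after their values were seen.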

Additional observations from a re-analysis of the deposited data

Results flagged for a closer look

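In groups of 6 tumors, the lowest or highest library was compared with the spread of the others for the 5 levels and 4 count ratios of each genotype, 18 sets in all. The 18 sets share genes and libraries and are not independent, so nothing is read from the number flagged. In 3 sets a single library stood apart by Dixon's 95% critical value, where chance gives about 1 in 20 for a lone set. In each it was Kit-B6 tumor 4. Cxcr2 there was at 29.8 CPM, below the next lowest Kit-B6 tumor at 80.8 CPM. The library had 20 Hdc counts per Fpr1 count, against 1.91 to 3.87 in the other 5 Kit-B6 tumors, and rests on 2 counts of Fpr1. It had 2.86 Hdc counts per Fpr2 count, against 0.547 to 0.967 in the others. It is also the library with the highest summed epithelial markers among the Kit-B6 tumors (49434 CPM), and the part of that in these values was not tested.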

How the results depend on the processing

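Each library was left out in turn, and scaling, filter, count model, pseudocount and the libraries in the fit were changed one at a time. Of the 345 fold changes of the 5 genes under these alternatives, 339 kept their direction and side of the threshold, 3 passed the threshold only with DESeq2 (Cxcr2, Fpr1 and Hdc between tumor genotypes), and 3 changed sign. The sign changes were all in the interaction of near-0 genes. Cxcr2 went from 0.27 (range with single libraries left out -2.25 to 3.99) to -2.25 without Kit-B6 preneoplastic sample 2 and to -0.52 without Kit-W/sh preneoplastic sample 1, and Fpr1 from 0.90 (range -2.49 to 1.5) to -2.49 without Kit-B6 preneoplastic sample 1. All 5 genes were called in both stage comparisons under all alternatives run, and 0 of 5 between tumor genotypes except with DESeq2, which called 3. Of the 96 alternative correlations 94 stayed positive and past no adjusted threshold. The exceptions were Hdc with Cxcr2 (-0.127) and with Fpr1 (-0.298) in Kit-B6 tumors without the 2 farthest tumors. Leaving out single tumors gave 0.327 to 0.770 and 0.453 to 0.735 for these, and 0.197 to 0.651 for the weakest relation, Hdc with Fpr2 in Kit-W/sh.

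Genes called between tumor genotypes numbered 27 with DESeq2 and 0 otherwise. In preneoplastic colon the 1 gene called became 21 with DESeq2 and 0 with unscaled totals, with the replicate block or with all 17 libraries in 1 fit, and leaving out single libraries gave 0 to 16 (16 without Kit-B6 sample 1). The stage count in Kit-W/sh was 132 to 367 with single libraries left out, at its lowest without preneoplastic sample 1 (132) or 2 (159), where the lone remaining sample is assumed to vary like the other groups. The interaction count was 1 with DESeq2 and 0 to 2 with single libraries left out. The cause of these changes was not tested. Same-numbered samples had r of -0.229 to 0.364 over 18 pairs, 6 of them over 0.1. Of the 6 Kit-B6 tumors, 3 were closest to the Kit-W/sh tumor of their own number. Whether the replicate numbers pair the samples was not tested. With the replicate block 0 genes were called between tumor genotypes, 276 between stages in Kit-B6 and 250 in Kit-W/sh, and the 5 genes were called as before. Depth limits the preneoplastic values of Cxcr2 and Fpr1, which rest on 1 to 3 counts a group.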
